A study of Schizosaccharomyces pombe with 5 samples.

Results

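Peaks over the mRNAs of 3 translation factor genes, tif51, tif471 and sum3, were examined in CLIP-Seq (UV cross-linking, immunoprecipitation and sequencing of bound RNA) of the RNA-binding proteins Mei2 and Msa1 of fission yeast. The peaks were selected on their presence in the deposited peak lists, so the excess of tagged over untagged reads that put them there is given as a description, with no test. They were 3 of 268 listed peaks, namely 2 of the 128 Mei2 peaks, over tif51 and tif471, and 1 of the 140 Msa1 peaks, over sum3. The 5 libraries of the study came from Mei2-TAP cells (2 libraries), Msa1-TAP cells (2 libraries) and untagged cells (1 library), all of the homothallic h90 mating type and all put on nitrogen-poor malt extract medium to enter meiosis. The labels give 4 h of starvation for each library, while the growth protocol names samples at 4, 5 and 6 h. The TAP tag, whose protein A part binds IgG beads, was joined to the C-terminus of Mei2 or Msa1, and the study used Msa1-TAP as a control beside untagged cells. Behind each list stand 1 tagged library and the untagged one, so no value below has a replicate check, and the replicate libraries were not analysed here.

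Translation begins when the eIF4F complex binds the mRNA cap, recruits the small ribosomal subunit and opens structure in the 5′ leader. Elongation factors then carry the ribosome along the coding sequence. tif471 (SPAC17C9.03) encodes eIF4G, the scaffold of eIF4F that joins the cap-binding protein eIF4E to the helicase eIF4A. sum3 (SPCC1795.11) encodes the DEAD-box RNA helicase known as Ded1 in budding yeast, which helps the small subunit to scan the leader. tif51 (SPAC26H5.10C) encodes eIF5A, a small protein that carries the modified amino acid hypusine and keeps ribosomes moving through sequences that are slow to translate.

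The 3 peaks differed in form. The Mei2 peak on tif51 covered nearly the whole mRNA, the Mei2 peak on tif471 was a short stretch late in the coding sequence, and the Msa1 peak on sum3 was a short and very deep stretch in the 3′ UTR. No Msa1 peak lay over tif51 or tif471, and no Mei2 peak lay over sum3. A tag here is a unit of sequenced reads in which each read of a pair counts as 0.5.

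Sequences from the peaks are shown for the place of each in its mRNA. They are written in the direction of the mRNA from the RefSeq genome ASM294v3, minus strand, whose gene coordinates were checked against the build of the deposited lists. Capitals mark the words TNAAAC with any base but A at N, which are bound by Mmi1, the remover of meiotic RNAs that Mei2 holds in check. The first is the 120 nt at the centre of the tif51 peak (chrI:4141802-4141921), all coding. The second is the 30 nt around the tif51 stop codon (chrI:4141721-4141750), where both words of this mRNA lie and the first overlaps the stop codon. The third is 300 nt of the tif471 peak (chrI:4492822-4493121), all coding. The fourth is the 30 nt at the centre of the sum3 peak (chrIII:974499-974528), in the 3′ UTR.
tif51, centre of the peak: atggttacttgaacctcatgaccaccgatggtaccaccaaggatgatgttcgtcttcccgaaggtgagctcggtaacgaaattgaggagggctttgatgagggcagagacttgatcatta
tif51, stop codon: ccagctcTTAAACtttTGAAACttgactga
tif471, peak: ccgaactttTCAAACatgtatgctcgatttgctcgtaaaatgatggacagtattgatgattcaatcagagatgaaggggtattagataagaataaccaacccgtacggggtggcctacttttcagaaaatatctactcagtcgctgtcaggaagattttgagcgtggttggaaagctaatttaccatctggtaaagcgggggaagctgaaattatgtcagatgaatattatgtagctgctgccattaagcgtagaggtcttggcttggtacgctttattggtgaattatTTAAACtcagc
sum3, centre of the peak: ggacggatgctcattgggtgtgctttttaa

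The tif51 peak (chromosome I 4141373 to 4142349, width 976 nt) covered 965 of the 1057 nt of the gene, or 91.3%. It took in the whole 5′ UTR of 124 nt, the whole coding sequence of 474 nt and 367 nt of the 3′ UTR of 459 nt. The last 92 nt of the mRNA lay outside it, and 12 nt of the peak lay upstream of the annotated start. By width it ranked 5 of the 128 Mei2 peaks (widths 200 to 3769 nt, median 200 nt), and it also ranked 5 by tags. Width and tagged tags went together in the lists (Spearman correlation 0.74 over 128 Mei2 peaks and 0.51 over 140 Msa1 peaks, a description, since peaks share their library), and the part of depth in the width was not tested. Among 127 pairs of a Mei2 peak and a coding gene beneath it, the peak covered a median of 8.56% of the gene. More than 90% was covered in 3 genes, namely aga1, SPACUNK4.17, which encodes a predicted dehydrogenase, and tif51. Since aga1 lies beside the meiRNA gene sme2 and the lists carry no strand, its coverage does not tell which RNA was recovered there. The non-coding RNA SPNCRNA.964, transcribed in the same direction as tif51 and starting further upstream, shared 50 nt with the tif51 peak at its 5′ side. No annotated gene on the other strand lay beneath the tif51 peak. SPNCRNA.963, on the other strand, lay within 1000 nt.

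**Figure D1:**
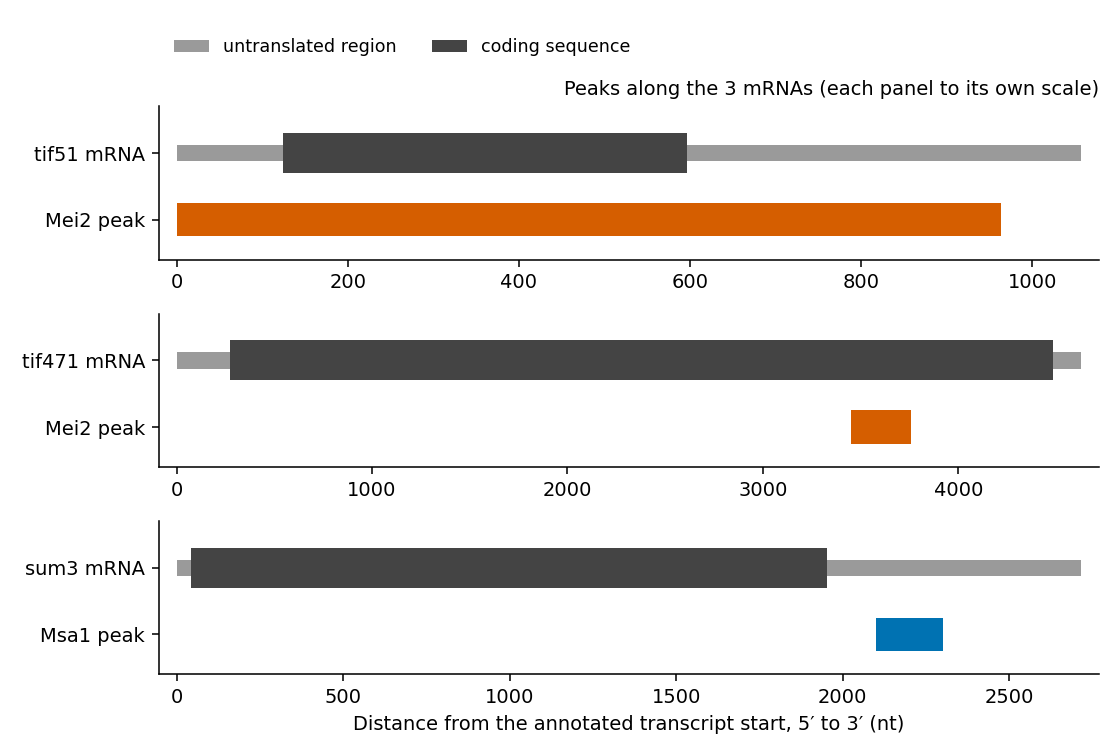
Peaks along the mRNAs of tif51, tif471 and sum3, with the distance from the annotated transcript start in nt on each horizontal axis, dark bars for coding sequence, grey bars for untranslated regions, orange bars for Mei2 peaks and a blue bar for the Msa1 peak. The tif51 peak spans 91.3% of the gene, whereas those on tif471 and sum3 span 6.66% and 7.40% and lie in the 3′ part.

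The tif471 peak (chromosome I 4492818 to 4493125, width 307 nt) lay wholly within the coding sequence, from nt 3454 to nt 3761 of an mRNA of 4627 nt. It ended 725 nt before the end of the stop codon and covered 7.31% of the 4212 nt of coding sequence. Its midpoint stood at 78.0% of the gene length. No other annotated gene lay beneath it, on either strand, and pmc3, on the other strand, was the only other gene within 1000 nt.

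The sum3 peak (chromosome III 974413 to 974613) had the narrowest width in the Msa1 list, 200 nt, the width of 94 of the 140 peaks. It lay wholly in the 3′ UTR, beginning 148 nt and ending 348 nt past the stop codon, and covered 26.4% of that UTR of 762 nt. The transcript end was 414 nt further on, and its midpoint stood at 81.1% of the gene. No second annotated gene lay under it. Within 1000 nt were SPNCRNA.7132, on the same strand, and SPCC1795.12C, on the other strand. All 3 mRNAs are annotated as a single exon, so no part of these peaks was intronic.

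Depth set the 3 peaks apart more than fold did. The tif51 peak held 270.5 tags in Mei2-TAP cells, against 48 in untagged cells, which was 7.34-fold after scaling to library size (95% counting interval 5.38 to 10.2). The tif471 peak held 41.5 tags in Mei2-TAP cells, against 9.5 in untagged cells, a 5.69-fold excess (2.77 to 13.0). The sum3 peak held 426 tags in Msa1-TAP cells, against 64 in untagged cells, a 4.67-fold excess (3.58 to 6.17). The 3 intervals overlapped, and the lists begin at 4.01-fold, with medians of 5.86 (Mei2) and 5.37 (Msa1). By fold, tif51, tif471 and sum3 therefore stood at ranks 44 of 128, 72 of 128 and 101 of 140. Ranked by the lower bound of the interval, which counts against shallow peaks, they stood at 7, 28 and 8. The place of all 3 thus depended on whether the fold or its lower bound was ranked. By tags they stood at ranks 5, 20 and 4.

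The libraries were shallow, with recovered totals of 194019 tags (Mei2-TAP), 359942 tags (Msa1-TAP) and 252537 tags (untagged). As a share of its library, the tif51 peak took 0.139% of Mei2-TAP tags (Wilson interval 0.124 to 0.157) and 0.0190% of untagged tags (0.0143 to 0.0252). The sum3 peak took 0.118% of Msa1-TAP tags (0.108 to 0.130) and 0.0253% of untagged tags (0.0198 to 0.0324). The share at tif471 was lower, 0.0214% of Mei2-TAP tags (0.0158 to 0.0290) and 0.00376% of untagged tags (0.00201 to 0.00703). In each case the tagged and untagged intervals lay apart, and a peak with too small an excess would not have been listed. The interval of tif51 in Mei2-TAP overlapped that of sum3 in Msa1-TAP.

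**Figure D2:**
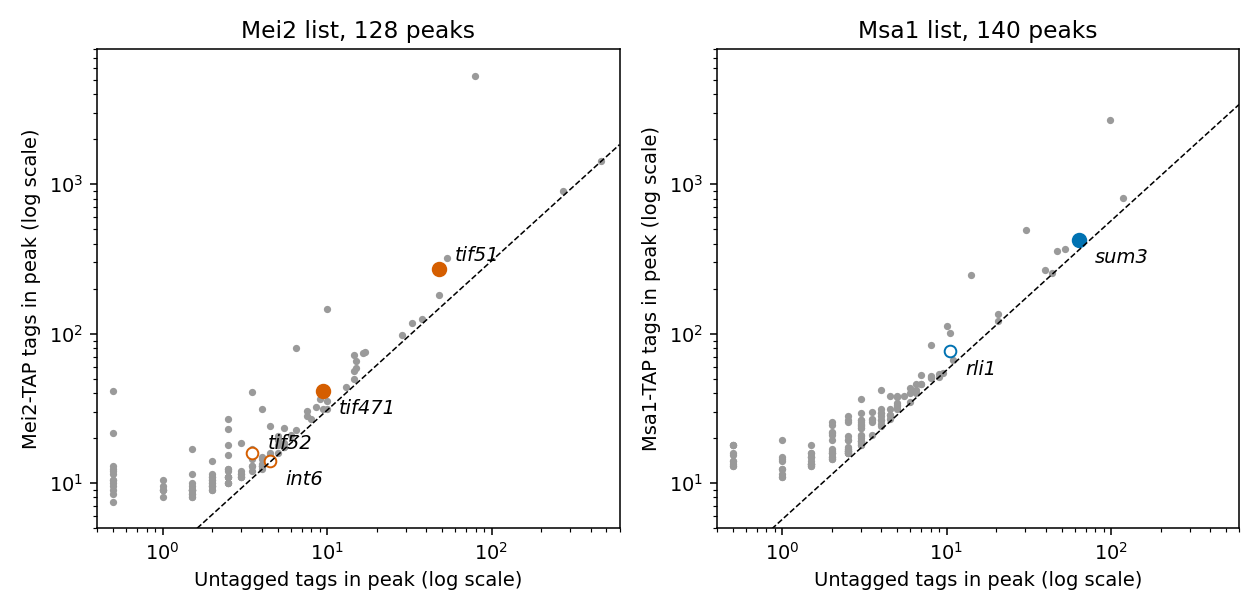
Tags in every listed peak, with untagged tags on the horizontal axis and tagged tags on the vertical axis (both log scales), for the Mei2 list (left) and the Msa1 list (right). Filled points are tif51, tif471 and sum3, open points are other translation factor genes, grey points are all other peaks, and the dashed line is the 4-fold level; sum3 lies close to the line at high tags in both libraries, and tif51 further above it.

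The untagged library was also deep at these places. The untagged tags of the tif51 peak ranked 5 among the 128 Mei2 peaks, those of the tif471 peak ranked 21, and those of the sum3 peak ranked 3 among the 140 Msa1 peaks, so the rank by tagged and by untagged tags was nearly the same for each gene. The median peak held 3 untagged tags in both lists. Across all listed peaks, tagged and untagged tags had a Spearman correlation of 0.84 (128 Mei2 peaks) and 0.93 (140 Msa1 peaks). The peaks of a list share their libraries and were all called above a fixed fold, so this is only a description. Input RNA was not analysed here, and the part of mRNA abundance in these depths was not tested.

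Density along the mRNA also differed. The sum3 peak held 213 tags per 100 nt in Msa1-TAP cells, against 32.0 in untagged cells, at rank 3 in density of the 140 Msa1 peaks, whose median was 9.60 tags per 100 nt. The tif51 peak held 27.7 tags per 100 nt in Mei2-TAP cells, against 4.92 in untagged cells, at rank 8 of 128. The tif471 peak held 13.5 tags per 100 nt in Mei2-TAP cells, against 3.09 in untagged cells, at rank 14 of 128, where the median of the Mei2 list was 5.75. Libraries differ in size, so densities were ranked within a list. The tif51 tags were thus counted over a span of most of an mRNA, and the sum3 tags over 200 nt, the narrowest width listed. How tags were spread within a peak, and how many lay outside it, is not in the lists.

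**Figure D3:**
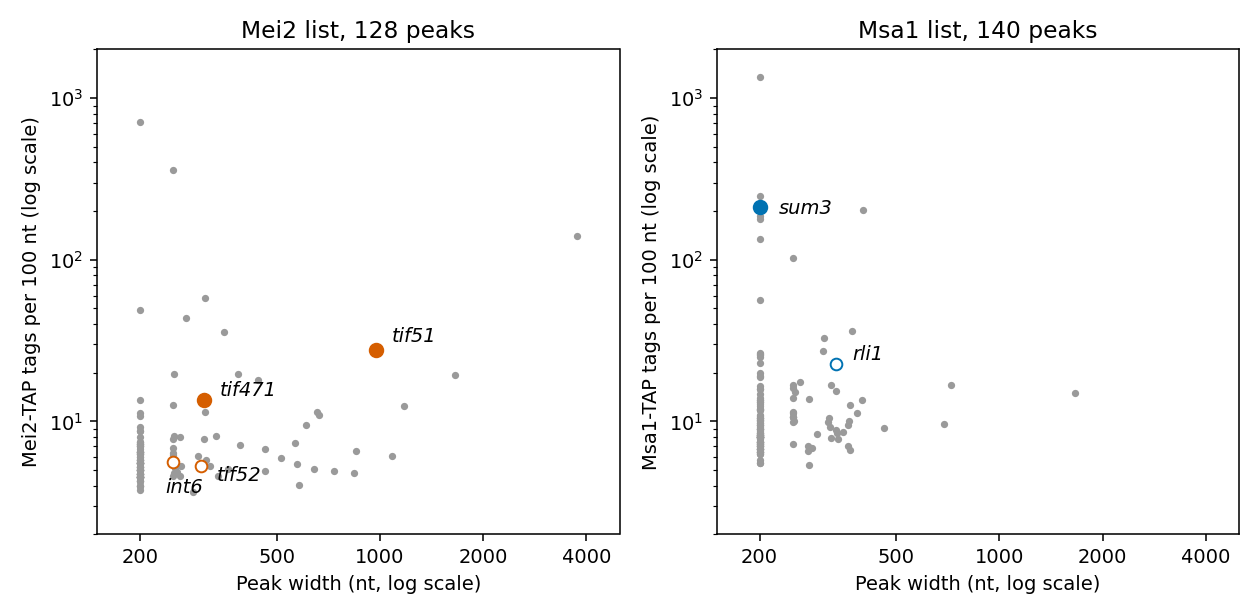
Width of every listed peak in nt on the horizontal axis and tags of the tagged library per 100 nt on the vertical axis (both log scales), for the Mei2 list (left) and the Msa1 list (right), with filled points for tif51, tif471 and sum3 and open points for other translation factor genes. tif51 combines a width of 976 nt with 27.7 tags per 100 nt, and sum3 has 213 tags per 100 nt at the narrowest width of 200 nt.

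The lists also carry HOMER's clonal fold change, which grows when the tags of a peak pile up on fewer distinct positions than their number would give. It was 1.83 at tif471, the highest of the 128 Mei2 peaks (median 0.990). At sum3 it was 1.79, at rank 4 of the 140 Msa1 peaks (median 1.10, highest 1.94). At tif51 it was 1.00, at rank 57 of 128. Libraries were amplified for 12 cycles with no molecular identifiers described, and the counting intervals for tif471 and sum3 do not cover repeated copies of a molecule. The part of amplification in these 2 peaks was not tested.

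Absence from the other list does not give a level there. To reach 4-fold over the untagged library across the same span, Msa1-TAP would have needed 274 tags over the tif51 peak and 54.2 over the tif471 peak. Mei2-TAP would have needed 197 tags over the sum3 peak. The tags actually present there are not in the lists. The nearest Msa1 peaks lay 47709 nt from tif51 and 38399 nt from tif471, and the nearest Mei2 peak lay 87203 nt from sum3. A difference between the proteins at these genes was therefore not tested here. Peaks of Mei2 called directly against Msa1-TAP were not analysed here.

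Genes of other translation factors were counted beside the share of all nuclear coding genes. Of 41 genes of initiation, elongation, termination, recycling and related factors, 3 lay under a Mei2 peak, or 7.32%, where 2.25% of all 5113 nuclear coding genes did. Under an Msa1 peak lay 2 of the 41, or 4.88%, against 2.54% of all nuclear coding genes. The list was drawn up with tif51, tif471 and sum3 already known to be listed, so these shares carry no evidence of a preference. Besides those genes, only int6, encoding the eIF3e subunit of the scaffold complex eIF3, and rli1, encoding the ATPase that splits ribosomes after termination, lay under a peak. The other 36 genes lay under neither, including tif1 (eIF4A), tif45 and tif452 (both eIF4E), sce3 (eIF4B) and pabp (poly(A)-binding protein), which work with eIF4G at the ends of the mRNA. The same held for mmd1, whose product completes the hypusine of eIF5A, and for all 3 genes of the tRNA-carrying factor eEF1A (tef101, tef102 and tef103). Most of all nuclear coding genes also lay under neither, so these absences are no result about translation factors. Of 20 DEAD-box helicase genes, only the chosen member sum3 lay under a peak, of Msa1. That was 5.00% under Msa1, against 2.54% of all nuclear coding genes, and 0% under Mei2, against 2.25%. With sum3 already known to be listed, this count carries no evidence about helicases.

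The int6 peak was shallower than the 3 peaks above, and the rli1 peak took 0.0211% of Msa1-TAP tags, where tif471 took 0.0214% of Mei2-TAP tags. Over int6, Mei2-TAP had 14 tags, against 4.5 in untagged cells, a 4.05-fold excess (1.33 to 15.4), in the coding sequence at 50.8% of the gene. This peak lay fully over SPNCRNA.4938 on the other strand, and since the lists carry no strand, which RNA was recovered is not known. Over rli1, Msa1-TAP had 76 tags, against 10.5 in untagged cells, a 5.08-fold excess (2.65 to 10.8), in the coding sequence at 78.2% of the gene. With gene products as annotated in place of the names, 49 genes were counted and tif52, annotated as a translation initiation factor and singled out after its values were seen, was added under Mei2, giving 4 genes. These were 8.16% of the 49, where 2.25% of all nuclear coding genes lay under a Mei2 peak. Under Msa1 that count was 0, against 2.54% of all nuclear coding genes, since the products of sum3 and rli1 are worded otherwise. The tif52 peak had 16 tags in Mei2-TAP cells, against 3.5 in untagged cells, a 5.95-fold excess (1.82 to 27.4), at 16.5% of the gene. It shared 25 nt with SPNCRNA.714 on the other strand. The counting intervals of int6 and tif52 reached below 2-fold.

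Other peaks came close to these genes in both tag counts. Likeness was the distance between log2 tagged and log2 untagged tags over the 2 libraries of a list. Closest to tif51, at 0.292, was the SPACUNK4.17 peak, with 321 tags in Mei2-TAP cells, against 53.5 in untagged cells, and it too was wide, at 1654 nt. Its density of 19.4 tags per 100 nt in Mei2-TAP and its clonal value of 0.98 were also near those of tif51. The peak over SPNCRNA.2435 and snu3 (the U3 small nucleolar RNA) and the peak over SPNCRNA.2052 and SPAC11D3.01C followed, at 0.580 and 1.15. Closest to tif471 were peaks over sid2, a kinase gene of the septation pathway, at 0.201, over the small heat shock gene hsp20 at 0.237 and over SPNCRNA.6761 with SPCC794.04C at 0.387, with 4.62- to 5.28-fold excesses and clonal values of 0.91 to 1.2, below the 1.83 of tif471. Closest to sum3 were a peak on the mitochondrial genome at 0.348, the phosphate transporter gene pho841 at 0.515 and SPBC725.03 at 0.922, all in 200 or 250 nt.

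**Figure D4:**
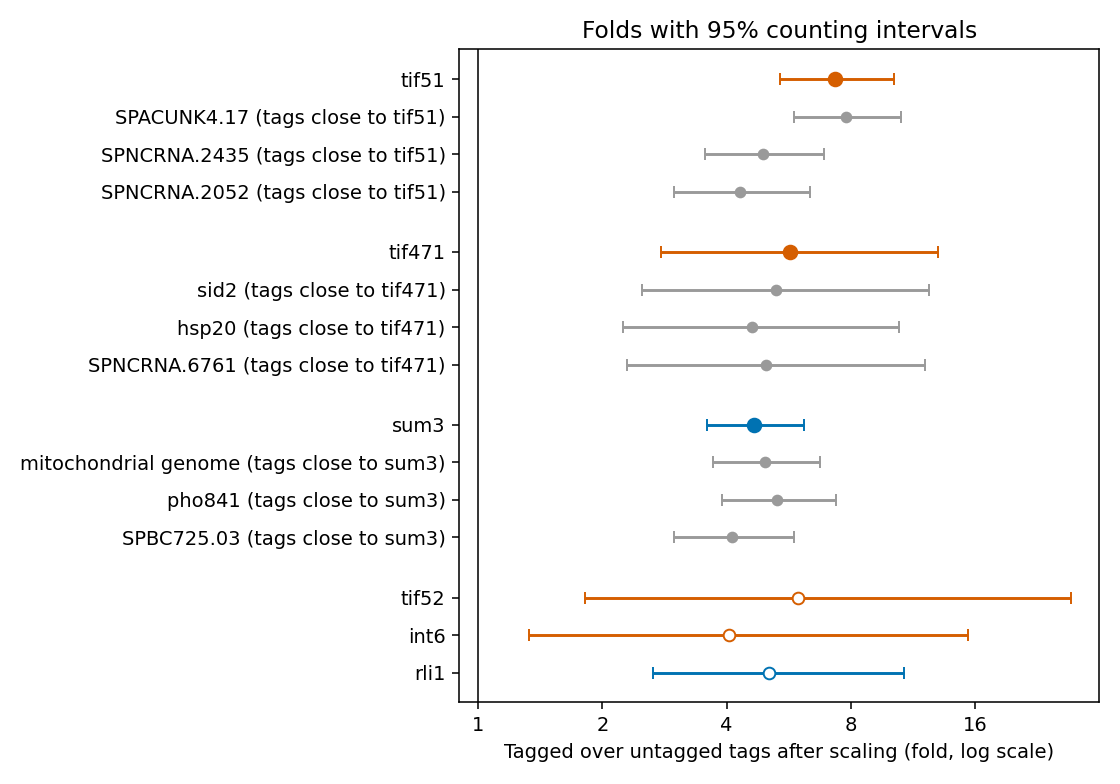
Tagged over untagged tags after scaling (log scale) with 95% counting intervals, for tif51, tif471 and sum3 (large filled points), for the 3 peaks of the same list closest to each in tags (grey) and for tif52, int6 and rli1 (open points); orange is Mei2 and blue is Msa1. Intervals are narrow for tif51 (5.38 to 10.2) and sum3 (3.58 to 6.17) and wide for int6 (1.33 to 15.4).

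In sequence the peaks stood out little. GC content was 42.4% in the tif51 peak, 40.3% in the tif471 peak and 39.3% in the sum3 peak, where the medians over nuclear peaks were 39.8% (Mei2, range 27.9 to 51.2) and 35.8% (Msa1, range 21.9 to 55.7). The rest of tif51 had 28.3% GC, but this is only the last 92 nt. The rest of tif471 had 42.5% and the rest of sum3 had 43.5%. The Mmi1 words TNAAAC (no A at N) cannot overlap each other on a strand. On the mRNA strand, 2 of them lay in the tif51 peak, as printed above, and these were the only ones in the gene, while the other strand of the peak held 4. In tif471, 2 of the 10 words of the gene lay in the peak, near its ends. In sum3, none of the 4 words of the gene lay in the peak. On either strand, 57.8% of Mei2 peaks and 40.1% of nuclear Msa1 peaks held a word, while windows of the same length across the 3 chromosomes held one in 92.4% (tif51), 56.0% (tif471) and 41.3% (sum3) of cases. A word is a run of letters, and its presence or absence says nothing of Mmi1 binding.

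The genome holds a near copy of tif51. This gene, tif512, on chromosome II 2758645 to 2759254, encodes a putative second eIF5A with a coding sequence of the same 474 nt, of which 427 nt (90.1%) were identical to tif51, and the longest identical run was 41 nt. Of the 948 words of 30 nt in the tif51 peak, 12 occurred elsewhere in the genome, all others being unique. The peak also covered the UTRs of tif51, and tif512 lay under no peak of either list. None of the 279 words of 30 nt in the tif471 peak, nor of the 172 in the sum3 peak, occurred elsewhere. How the authors placed reads that match several sites is not given in the sources used here.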

How the data were processed

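Cells were UV cross-linked and lysed, the tagged protein was collected on IgG beads, and strand-specific paired-end libraries were made from the RNA with 12 PCR cycles. The authors mapped pairs with STAR to ASM294v2 (tool versions not given in the sources used here), keeping concordant pairs and annotated junctions, and called wide peaks with HOMER against the untagged library. Per the file headers, the tag signal is scaled to 10000000 tags. The estimated counts of tags per peak are deposited unscaled for 1 library of each pair and scaled to it for the other. As deposited, fold is a ratio of scaled tags, and the deposited p-value is the Poisson value of HOMER, used only for a stricter threshold. The deposited score was not used. The lists give every peak on the plus strand, so they carry no strand.

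The Mei2-TAP and untagged totals were taken from ratios between the deposited tag values. Msa1-TAP tags are listed only in scaled form, so no such ratio gives their total. The Msa1-TAP total was instead the one that put its low values on steps of 0.5 tags, on the assumption that true tags fall on such steps. Unscaled tags of the other library of each list followed. Msa1-TAP tags, densities, shares and intervals, as at sum3 and rli1, rest on that assumption. Of the low values, 120 of 120 (Mei2) and 127 of 127 (Msa1) lay within 0.2 steps of 0.5 tags. The Msa1-TAP total was chosen to bring this about, so the Msa1 count is no check of it. Ratio intervals are exact Clopper-Pearson at 95% and shares have Wilson intervals. Both cover counting error only. The recovery was tested on simulated totals, and the intervals on simulated independent whole counts. The simulated counts for the intervals had no repeated copies, no steps of 0.5 tags and no choice of peaks by fold, so coverage under those conditions was not tested. Peaks were set against the ASM294v3 annotation (12645 genes) by overlap of 1 nt on either strand. Of 149 coding genes that the study annotated on ASM294v2, 148 kept a start or an end, and 0 peaks lay past a chromosome end. No promoter or protein tables were used. No test was made, since each list rests on 1 tagged library and the peaks were chosen from it. The members and gene lists were chosen with earlier results of these data known. In the gene lists, 7 names that this annotation holds for another gene or not at all were corrected by the function noted beside them, after the data had been seen: 5 took the annotated symbol (tif303, tif307, tif45, pabp and ddx27) and 2 were dropped because their helicase was already listed. The counts of listed genes under a peak did not change. The genes named were the 3 members, list genes under a peak, genes sharing a member peak or within 1000 nt of it, and the 3 peaks nearest in tags. Named outside this rule, after their values were seen, were tif52, tif512, aga1, sme2 and the list genes under no peak. Python 3.11.15, scipy 1.17.1 and Biopython 1.88 were used.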

Additional observations from a re-analysis of the deposited data

How the results depend on the processing

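The folds of tif51, tif471 and sum3 stayed within their counting intervals with the deposited fold, with 1 tag added to both libraries and with totals that leave out the listed peaks, while the midpoint was at 45.1% to 75.5% in tif51 and 78.0% to 79.1% in tif471 over the other spans tried. The places of all 3 depended on whether the fold or its lower bound was ranked, and on whether peaks with few untagged tags were kept. The share of the list with a lower fold was 65.6% for tif51, 43.8% for tif471 and 27.9% for sum3. By the lower bound of the interval in place of the fold it was 94.5%, 78.1% and 94.3%, and among peaks with at least 3 untagged tags it was 88.4%, 76.8% and 40.8%, in the same order of genes. Measured along the coding sequence alone, the sum3 midpoint was at 113%, past the stop codon. Translation factor genes numbered 3 (Mei2) and 2 (Msa1) by longest overlap and by peak midpoint too. A stricter threshold was at least 8-fold with a deposited p-value of at most 1e-10. All 3 members met its limit on the p-value and missed it on fold alone. Under this threshold there were 0 such genes for Mei2 and 0 for Msa1. With the list taken from annotated products, a choice made after seeing the data, there were 4 for Mei2 and 0 for Msa1, since the products of sum3 and rli1 are worded otherwise. No paired analysis was possible because each list rests on 1 tagged library, and no replicate could be left out. Depth limits tif471, int6 and tif52 most.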
